A study of Mus musculus with 2 samples.

Results

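S-phase basal interfollicular keratinocytes were here cells of the lower epidermal layer, outside the hair follicles, with high RNA levels of replication genes. The name follows these RNA levels, and DNA synthesis was not measured. The cells were chosen from their own transcript counts in 4 steps. Cell barcodes with at least 1800 detected genes were kept. A basal interfollicular pool was then formed from cells with at least 80 Krt5 and Krt14 molecules per 10000 (counted as unique molecular identifiers, UMIs), fewer than 30 Krt1 and Krt10 molecules per 10000, and no UMI of the follicle genes Shh, Dkk4, Lhx2, Sox9 or Krt79. Cells of that pool with 5 or more UMIs of the late cell cycle genes Mki67, Top2a and Cdk1 were set aside. The S-phase cells were the remaining cells in the top 25% of their own library by the summed level of Pcna, Mcm3, Mcm5, Mcm6 and Mcm7, provided that they held at least 1 UMI of a late cell cycle gene or of Pcna. They numbered 487 of 8024 kept cells and of 3359 pool cells, 314 from the control and 173 from the cKO.

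Epithelial cells were sorted from the back skin of C57BL/6 embryos at embryonic day 17 and profiled with the 10x 3′ V2 chemistry, in 1 library per condition. The control was labelled Mettl3 fl/+, Rosa16-YFP fl/+, K14Cre, so it carried the Cre and 1 floxed Mettl3 allele, and the conditional knockout (cKO) was Mettl3 fl/fl with the same reporter and Cre. Mettl3 encodes the catalytic subunit of the complex that writes N6-methyladenosine (m6A) on mRNA. The keratin 14 promoter drives the Cre in basal epithelial cells and what descends from them, and the YFP reporter marks recombined cells, and the sort also used integrin staining. The labels do not say how many embryos each library came from. With 1 library per condition there was no replicate and no test, so every ratio below compares 2 libraries, and genotype, embryo and library cannot be told apart.

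Before S phase, a cell loads the MCM2-7 helicase onto replication origins with the help of ORC, CDC6 and CDT1, a step called licensing. The helicase is activated by CDC45 and the GINS complex, polymerases copy both strands, and PCNA, the sliding clamp, holds the polymerases on DNA and recruits the enzymes that join the lagging strand. In the embryonic epidermis such cells lie mainly in the basal layer, which renews itself and feeds the differentiating layers above. The authors also describe some cells with Krt1 and Krt10 as cycling at this stage.

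The 2 libraries held 59664869 UMIs (control) and 49755010 UMIs (cKO), and the kept cells had medians of 8941 and 8581 UMIs. Xist was detected in 99.8% of the kept control cells and 0.028% of the cKO cells, and at least 1 Y-linked gene in 0.112% and 64.3%, so the libraries also differed in embryo sex. Of the kept barcodes 16 occurred in both libraries, and 5 of these touched an S-phase cell. Scrublet marked 6 control and 3 cKO cells as doublets, none of them in S phase, which is too few for the caller to have worked, so no cell was removed. In the S-phase cells Mettl3 was at 13.6 CPM (control) and 7.22 CPM (cKO) on 39 and 11 UMIs, where CPM is counts scaled to a total of 1000000 UMIs over the summed cells. The cKO level over the control level was 0.53 (0.245 to 1.06), where parentheses here and below hold the 95% interval for counting error alone. Reads of this chemistry lie at the 3′ end, outside the floxed exon, so this level does not check the deletion.

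The S-phase cells were close in depth to the rest of the pool. Their median was 8975 UMIs for the control and 8589 for the cKO, against 9040 and 9168 in all other pool cells, 11243 and 11373 in the pool cells with 5 or more late cell cycle UMIs (called mitotic-phase cells here), and 7553 and 7554 in cells with a score below the pool median and no late cell cycle UMI (called resting cells here). They made up 14.1% of the control pool (95% exact binomial interval 12.7 to 15.7) and 15.2% of the cKO pool (13.2 to 17.4). The rule takes the top 25% of each pool and then removes cells by their late cell cycle and Pcna UMIs. These shares therefore measure the gate and not the rate of cycling. Of the top cells, 188 of 556 (control) and 85 of 285 (cKO) were set aside for 5 or more late cell cycle UMIs. The mitotic-phase and other pool cells thus also hold cells with high levels of the 5 score genes. The limit on the summed level of the 5 genes was 6.11 per 10000 for control cells and 5.29 for cKO cells. The lowest cell inside stood at 6.12 in the control and 5.29 in the cKO, and the highest outside at 6.11 and 5.28. The limit passed through a continuum of cells, since 43 control and 25 cKO S-phase cells lay within 10% above it and 82 and 60 pool cells within 10% below. A typical S-phase cell reached the gate on 8 UMIs of the 5 genes among control cells and 7 among cKO cells.

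The identity markers were present. A Pcna UMI was present in 82.8% (control) and 82.7% (cKO) of the S-phase cells, and the basal keratin Krt14 stood at 12106 CPM (control) and 10093 CPM (cKO). Mcm5 and Mcm6, also part of the gate, were at 169 and 215 CPM in the control and 155 and 164 CPM in the cKO cells. The basal transcription factor Trp63, which the gate did not use, was at 292 CPM (control) and 307 CPM (cKO), and the hemidesmosome genes Col17a1 and Itga6 were at 182 and 134 CPM in the control and 179.9 and 129 CPM in the cKO. Suprabasal markers were present too, with a Krtdap UMI in 98.7% (control) and 98.8% (cKO) of the S-phase cells. Krt10 had a UMI in 71.3% (control) and 66.5% (cKO) of them, and Sbsn in 34.4% and 43.4%. Krtdap was at 2571 CPM (control) and 2737 CPM (cKO), and at 3927 and 3824 CPM in the free RNA described below. Markers of other cells were sparse apart from Dcn. Of 5 Merkel cell markers 2 had a UMI in the control (5 UMIs in all) and none in the cKO, of 6 melanocyte markers 2 did in each library (8 and 3 UMIs), and of 5 immune markers Cd74 alone did (12 and 4 UMIs), with Ptprc at 0 in both. Of 4 endothelial markers Pecam1 alone did (11 and 13 UMIs). Of 6 fibroblast markers Dcn held nearly all UMIs, at 934 CPM (control) and 751 CPM (cKO), while Col3a1 and Pdgfra were at 0 in both libraries. Red cell globin genes held 89 and 47 UMIs. RNA in barcodes with 10 to 100 UMIs, taken as free RNA, carried Pcna at 77.2 CPM in either library, below the S-phase level, and Krt10 at 2189.8 CPM in the control and 2101 CPM in the cKO, above it.

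Promoters of 6 genes are shown, picked because each holds the word that the capitals mark. They run from 250 bases before to 50 bases after the annotated start (RefSeq, build GRCm38.p6), are written 5′ to 3′ on the gene's strand, and carry in capitals every match, on either strand, to an E2F-type word (TTTCCCGC, TTTCGCGC, TTTGCCGC or TTTGGCGC) or to the CHR word (TTTGAA), the element associated with genes of G2 and mitosis. Overlapping matches were kept. The first 3 belong to the replication helicase subunits Mcm5 and Mcm6 of the gate and to Hells, a chromatin remodeller among the genes highest in S-phase cells, and the last 3 to Ccnb2, Cenpa and Ube2c, mitotic genes among those lowest in them.
Mcm5, chr8:75109259-75109558, plus strand: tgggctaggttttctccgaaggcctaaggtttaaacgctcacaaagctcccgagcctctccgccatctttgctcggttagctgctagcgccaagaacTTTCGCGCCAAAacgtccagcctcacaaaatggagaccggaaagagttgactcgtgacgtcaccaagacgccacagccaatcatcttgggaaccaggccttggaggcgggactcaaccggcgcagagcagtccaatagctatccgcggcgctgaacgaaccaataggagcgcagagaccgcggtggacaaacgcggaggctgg
Mcm6, chr1:128359656-128359955, minus strand: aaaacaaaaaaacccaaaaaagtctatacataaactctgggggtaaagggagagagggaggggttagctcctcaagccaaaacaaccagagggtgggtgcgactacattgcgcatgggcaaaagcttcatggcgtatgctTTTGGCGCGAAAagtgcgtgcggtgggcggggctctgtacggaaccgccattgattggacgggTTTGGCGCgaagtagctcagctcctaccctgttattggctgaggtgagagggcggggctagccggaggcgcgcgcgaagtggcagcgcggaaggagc
Hells, chr19:38930740-38931039, plus strand: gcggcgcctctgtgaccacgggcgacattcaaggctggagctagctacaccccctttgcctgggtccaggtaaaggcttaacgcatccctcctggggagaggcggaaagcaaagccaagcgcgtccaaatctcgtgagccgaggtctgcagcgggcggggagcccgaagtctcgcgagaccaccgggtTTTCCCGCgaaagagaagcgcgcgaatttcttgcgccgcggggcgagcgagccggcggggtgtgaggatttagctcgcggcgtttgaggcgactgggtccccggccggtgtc
Ccnb2, chr9:70421505-70421804, minus strand: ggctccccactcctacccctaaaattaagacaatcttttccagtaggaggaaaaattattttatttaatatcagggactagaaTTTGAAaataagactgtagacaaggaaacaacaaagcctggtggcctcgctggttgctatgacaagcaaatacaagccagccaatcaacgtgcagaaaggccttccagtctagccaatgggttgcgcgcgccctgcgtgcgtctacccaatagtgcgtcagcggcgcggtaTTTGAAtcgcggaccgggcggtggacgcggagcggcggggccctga
Cenpa, chr5:30666636-30666935, plus strand: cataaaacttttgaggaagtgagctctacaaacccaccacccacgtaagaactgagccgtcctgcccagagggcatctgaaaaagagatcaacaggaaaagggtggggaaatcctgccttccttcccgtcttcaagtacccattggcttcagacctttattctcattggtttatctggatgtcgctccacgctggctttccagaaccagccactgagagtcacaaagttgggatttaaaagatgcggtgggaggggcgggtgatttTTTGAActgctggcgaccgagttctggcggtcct
Ube2c, chr2:164769679-164769978, plus strand: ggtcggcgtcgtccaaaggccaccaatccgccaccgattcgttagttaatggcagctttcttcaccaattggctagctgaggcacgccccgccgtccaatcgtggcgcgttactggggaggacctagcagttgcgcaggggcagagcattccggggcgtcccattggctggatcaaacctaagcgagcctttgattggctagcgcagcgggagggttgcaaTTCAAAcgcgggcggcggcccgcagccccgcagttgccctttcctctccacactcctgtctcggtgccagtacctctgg

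Mcm5 held 2 E2F-type matches that overlap, Mcm6 held 3 and Hells 1, whereas Ccnb2 held 2 CHR matches and Cenpa and Ube2c 1 each. They do not stand for all of their kind. Of the 10 genes highest in S-phase cells 8 had a promoter in the table and 4 of these an E2F-type word, with none in Ung, Mcm2, Rpa2 or Chaf1b, nor in Pcna of the gate, and Mcm2 held a CHR word. Of the 10 lowest 9 had a promoter and 6 of these the CHR word, with none in Nusap1, Mxd3 or Troap. Among all 27025 genes with a promoter in the table, 2.6% had an E2F-type word and 20.2% the CHR word. Of the replication genes outside the gate, 57 of 70 were matched to a promoter, and 15 of these (26.3%) had an E2F-type word. By role the share was 5 of 10 for origin licensing, 5 of 10 for the polymerases, 2 of 8 for helicase activation, 3 of 13 for clamp loading and strand maturation, 7 of 19 for control of entry into S phase, 0 of 16 for nucleotide supply and 1 of 53 for G2 and mitosis. The CHR word was in 36 of 53 promoters of the G2 and mitosis list (67.9%) and in 9 of 57 of the replication list (15.8%), 4 of these 9 among the 8 promoters of helicase activation genes. A match is a description of letters and not a binding site, and the absence of one says only that these words are not in the window.

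The description of the transcriptome sets the S-phase cells against the other pool cells of the same library. A gene was counted as higher or lower where its ratio was at least 1.5 or at most 1/1.5 in both libraries. Of 10289 genes, 1.59% were higher and 3.31% lower by that rule, which is the background for each list. Because the gate read 5 replication genes and late cell cycle genes in these same cells, the counts describe the cells that the gate took and carry no test. The 5 gate genes were all higher, as the rule fixes. Pcna was at 166 CPM in control S-phase cells, 81.2 in mitotic-phase cells and 22.7 in resting cells, and at 177, 66.2 and 29.7 CPM in the cKO. Of 70 replication genes that the gate did not read, 25 were higher and 1 lower, and the median log2 ratio was 0.47 (control) and 0.59 (cKO), where the median of all genes was -0.03 in both.

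Of 12 origin licensing genes beyond the gate's own helicase subunits 6 were higher and none lower, and the summed level was 826 CPM in control S-phase cells, 532 in mitotic-phase and 355 in resting cells, with 777, 462 and 421 CPM in the cKO. Mcm2, a helicase subunit the gate left out, was at 109.7 CPM in control S-phase cells against 48.9 in the other pool cells, and at 104 against 41.4 CPM in the cKO. Its ratio was 2.24 (1.97 to 2.55) and 2.51 (2.07 to 3.02). The loader Cdc6 was scarcer but stood further apart, at 25.9 against 7.09 CPM in the control and 24.95 against 6.23 CPM in the cKO, a ratio of 3.65 and 4.01. Cdt1, the other loader, was at 80.4 CPM (control) and 75.5 CPM (cKO), with ratios of 2.24 and 2.15. Orc1 had ratios of 2.92 and 3.05 and Orc6 of 1.63 and 1.64, whereas Orc4 was near the other cells at 0.907 and 1.18. Gmnn, the inhibitor of CDT1, had ratios of 1.4 and 1.42, under the size rule.

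Among the genes that start the helicase, 6 of 12 were higher and 1 was lower. Gins2, a GINS subunit, was at 102 CPM in control S-phase cells, 29.4 in mitotic-phase and 33.6 in resting cells, and at 115, 28.5 and 56.5 CPM in the cKO. Its level was highest in S phase in both libraries. Cdc45 had ratios of 1.89 and 2.15 over the other pool cells, and Mcm10 of 2.26 and 1.93. The exception was Dbf4, which activates the kinase CDC7. It was at 23.1 CPM in S-phase and 65.9 CPM in mitotic-phase cells of the control, and at 32.8 and 78.7 CPM in the cKO.

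Of 12 polymerase genes 5 were higher, among them the catalytic subunit of polymerase delta, Pold1, with ratios of 1.74 and 2.64. Of 17 clamp loader and strand maturation genes 6 were higher. Lig1, which seals lagging strand fragments, was at 208 CPM (control) and 212 CPM (cKO), with ratios of 1.95 and 2.39, and Rpa2, which coats single strands, was at 142 CPM (control) and 145 CPM (cKO), with ratios of 2.002 and 2.26. The PCNA-associated factor Pclaf (listed as 2810417H13Rik) followed another order. It was at 314 CPM in control S-phase, 685 in mitotic-phase and 31.6 in resting cells, and at 318, 426 and 32.4 CPM in the cKO. Against resting cells in place of the whole pool, 50 of 66 measured replication genes were higher in both libraries, on a background of 4.31%. All 16 of the clamp loader and strand maturation genes were. Resting cells were chosen for a low score of the 5 gate genes, so the direction was set by the choice of cells.

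The enzymes of nucleotide supply had a summed level of 2625 CPM in control S-phase cells, 2386 in mitotic-phase and 1299 in resting cells, with 2784, 2330.3 and 1403 CPM in the cKO. Of 17 genes 2 were higher than in the other pool cells in both libraries, on a background of 1.59%. Against resting cells, which were chosen for a low score, 11 were, on a background of 4.31%. Rrm2, the regulated subunit of ribonucleotide reductase, was at 220.1 CPM in control S-phase, 169 in mitotic-phase and 25.3 in resting cells, and at 260.0, 128 and 35.2 CPM in the cKO. Tyms, which makes thymidylate, was at 177, 237 and 37.1 CPM in the same 3 control groups and at 170.1, 173 and 23.2 CPM in the cKO. Tk1, the salvage kinase, was higher in mitotic-phase cells, at 205 CPM against 159.7 in the control and 288 against 211 in the cKO.

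**Figure D1:**
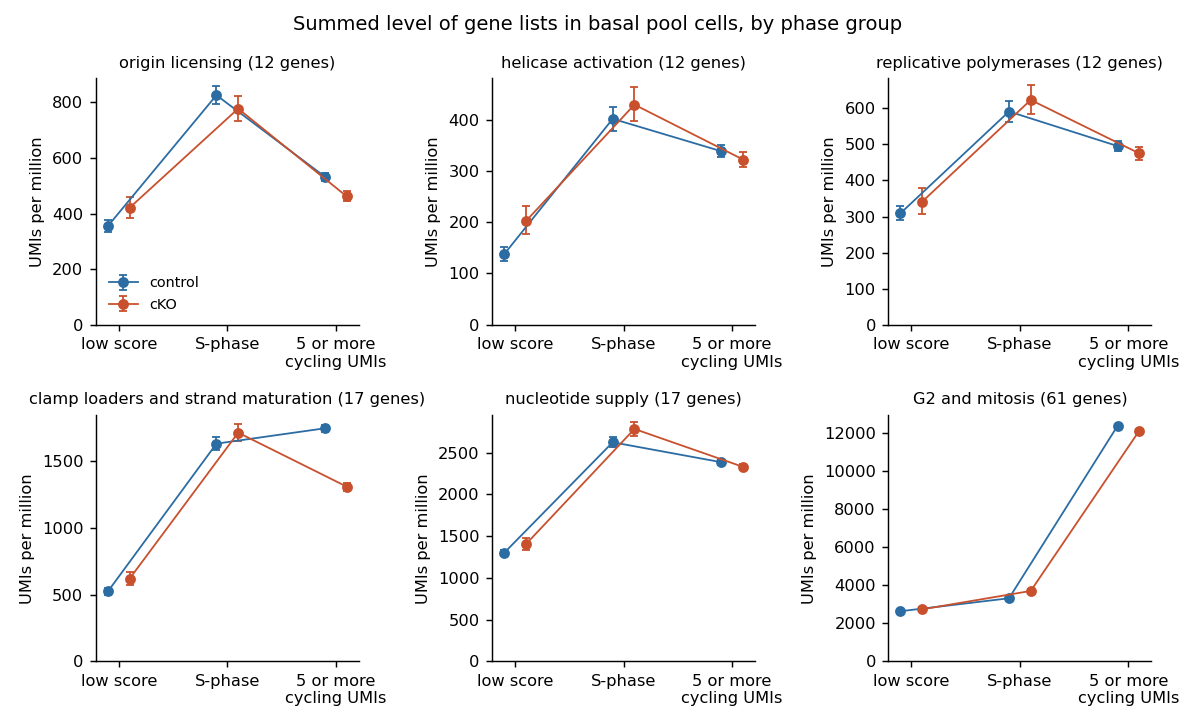
Summed level (y axis, UMIs scaled to a total of 1000000, with 95% Poisson intervals) of 6 gene lists in cells of low score (resting), S-phase cells and cells with 5 or more late cell cycle UMIs (mitotic-phase), control in blue and cKO in red. Origin licensing is highest in the S-phase cells of both libraries, at 826 and 777 CPM, while G2 and mitosis genes stand at 2636 and 2737 CPM in resting, 3317 and 3702 in S-phase and 12377 and 12122 CPM in mitotic-phase cells.

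Genes that rebuild chromatin behind the fork were partly higher, with 6 of 21 higher and 2 lower. Hells was at 169.8 CPM (control) and 157 CPM (cKO), with ratios of 2.12 and 2.22 over the other pool cells. Chaf1b, of the assembly factor that follows PCNA, had ratios of 2.12 and 1.88, Casp8ap2 of 1.88 and 2.01, and the histone chaperone Nasp of 1.56 and 1.54. The lower 2 were histone variants. H2afx was at 115 CPM in control S-phase and 565 CPM in mitotic-phase cells, and at 94.6 and 319 CPM in the cKO. H2afv had ratios of 0.564 and 0.56 over the other pool cells. Of 21 measured genes with a symbol that begins with Hist, 11 were lower and none higher. Most canonical histone mRNAs lack a poly(A) tail and are poorly read by this chemistry. These counts therefore do not give the level of canonical histone mRNA in S-phase cells.

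Ung ranked first by ratio among genes outside the gate with at least 100 UMIs in the S-phase cells of each library. This uracil glycosylase, which clears uracil from new DNA, was at 150.2 CPM in control S-phase, 31.2 in mitotic-phase and 49.2 in resting cells, and at 168, 30.04 and 46.3 CPM in the cKO. Its ratio over the other pool cells was 3.21 (2.86 to 3.61) in the control and 3.44 (2.94 to 4.01) in the cKO. In the entry list 5 of 23 genes were higher and 3 lower. Cyclin E genes Ccne1 and Ccne2 had ratios of 1.74 and 1.97 in the control and 2.65 and 2.61 in the cKO, and E2f1, the transcription factor, of 2.77 and 3.81. Ccnd1 (cyclin D1) was higher too, at 1.58 and 1.55, and the CDK inhibitor Cdkn2c was lower, at 0.234 and 0.147. Of 29 checkpoint and fork repair genes 7 were higher and 1 lower, including the checkpoint kinase Chek1 (2.15 and 1.84) and the fork protection pair Timeless (2.07 and 1.92) and Tipin (1.62 and 1.61).

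Genes of G2 and mitosis were the low side of the same picture. Of 61 genes 54 were lower than in the other pool cells and none higher, with a median log2 ratio of -1.90 in the control and -1.60 in the cKO. Ube2c, the ubiquitin enzyme of mitotic exit, was at 26.2 against 392 CPM in the control and 32.2 against 429.9 CPM in the cKO. Hmmr, a spindle protein, had ratios of 0.052 and 0.06, and the kinetochore gene Cenpf was at 13.97 against 169 CPM and 18.4 against 216 CPM. The gate excluded cells with 5 or more UMIs of 3 genes of this programme, so the direction was set by the choice of cells. Against resting cells, which were chosen for having no UMI of those 3 genes, 16 of 41 genes of the list were higher and 7 lower, on backgrounds of 4.31% and 1.35%. Ccnb2 (cyclin B2) was among the lower, at 8.73 CPM in S-phase and 54.0 CPM in resting cells of the control and 10.5 and 38.9 CPM in the cKO. The centromeric histone Cenpa was likewise at 20.6 and 85.7 CPM in the control and 20.4 and 81.5 CPM in the cKO.

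None of 22 basal keratin and adhesion genes passed the size rule in both libraries, none of 42 translation factors and none of 22 genes of the m6A machinery did, and of 28 differentiation genes 1 was lower. With backgrounds of 1.59% and 3.31%, counts near 0 are what lists of these sizes hold, and all pool cells had passed the same keratin minimum.

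**Figure D2:**
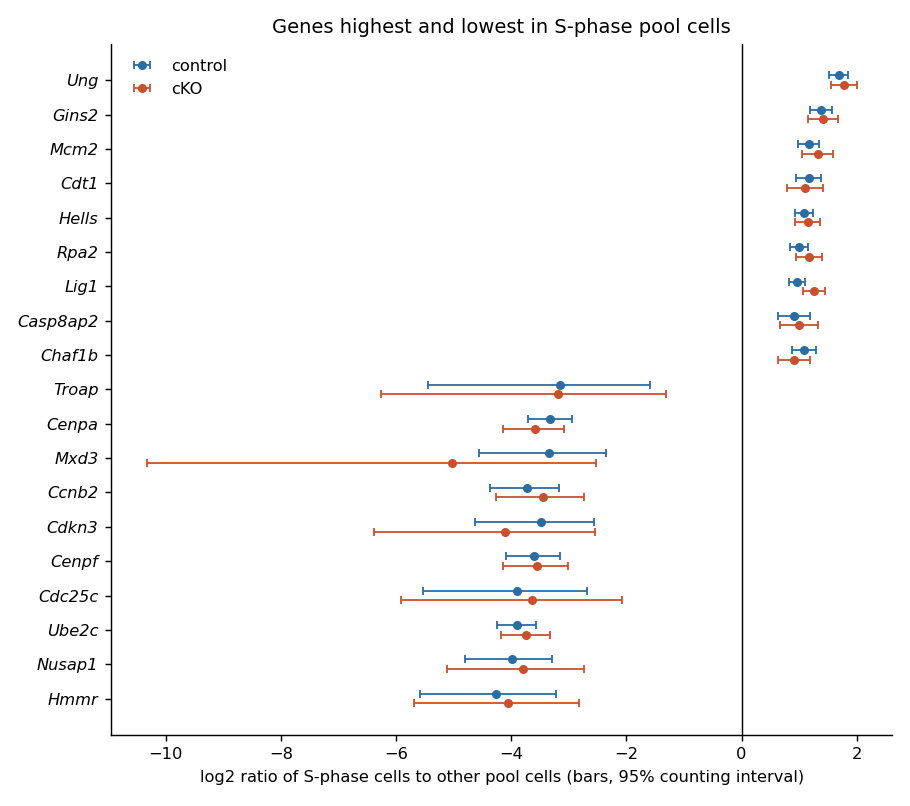
Log2 ratio of S-phase to other pool cells (x axis, bars 95% counting intervals) for 9 of the 10 highest and the 10 lowest genes outside the gate, control in blue and cKO in red. Ung leads at log2 1.68 and 1.78, and Hmmr is lowest in the control at -4.26, with wide intervals for scarce genes such as Mxd3.

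Counting cells in place of molecules gave the same order of the 3 groups for Gins2. To remove depth, every cell was thinned to 5500 UMIs, which left out 7 control and 5 cKO S-phase cells. A Gins2 UMI was then found in 40.1% of control S-phase cells, 13.8% of mitotic-phase and 15.9% of resting cells, and in 44.0%, 13.4% and 23.3% in the cKO (unthinned 58.0% and 57.2% of S-phase cells). Pcna, for which the cells were chosen, was at 62.9%, 33.2% and 10% in the control and 69.6%, 29.4% and 21.8% in the cKO, where the resting cells had been taken for a low score of the same genes. The mitotic kinase Plk1 had a UMI in 4.89% of control and 2.38% of cKO S-phase cells, 35.9% and 32.6% of mitotic-phase cells, and 1.79% and 1.5% of resting cells (unthinned 7.64% and 3.47% in S phase).

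The S-phase cells varied among themselves along the late cell cycle UMIs that the gate allowed. In the control 78 cells had 0 of these UMIs, 155 had 1 or 2 and 81 had 3 or 4, and in the cKO 43, 78 and 52. The median depth also differed a little between them, at 8364, 8996 and 9451 UMIs in the control and 8512, 8479.5 and 8850 in the cKO, and values below are scaled to equal totals. Clspn, the checkpoint adaptor, was at 11.6, 57.9 and 88.5 CPM in the control and 21.3, 58.4 and 64.5 CPM in the cKO. Gins2 and Mcm2 had no common order along this axis. Gins2 was at 97.3, 103 and 104 CPM in the control and 141, 112 and 97.8 CPM in the cKO, and Mcm2 at 115, 93.2 and 136 and 85.3, 111 and 108 CPM. Rrm2 was ordered along it, at 98.7, 217 and 335 CPM in the control and 159.9, 238 and 368 CPM in the cKO, which is higher at each step in both libraries. Tyms was at 82.7, 189.9 and 238 CPM in the control and 120.0, 156 and 229 CPM in the cKO, and Tk1 at 119, 146 and 221.9 and 157, 198 and 273 CPM. The clamp loader and strand maturation list had the same order, at 1077, 1598 and 2203 CPM in the control and 1336, 1671 and 2073 CPM in the cKO. Cyclin E was lowest in the cells without late cell cycle UMIs, with Ccne1 at 20.3, 48.0 and 56.8 and 18.7, 52.5 and 79.1 CPM. The chromatin protein Hmgb2, whose RNA also marks later phases, was at 512, 756 and 1025 and 706, 909.7 and 1290.3 CPM.

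**Figure D3:**
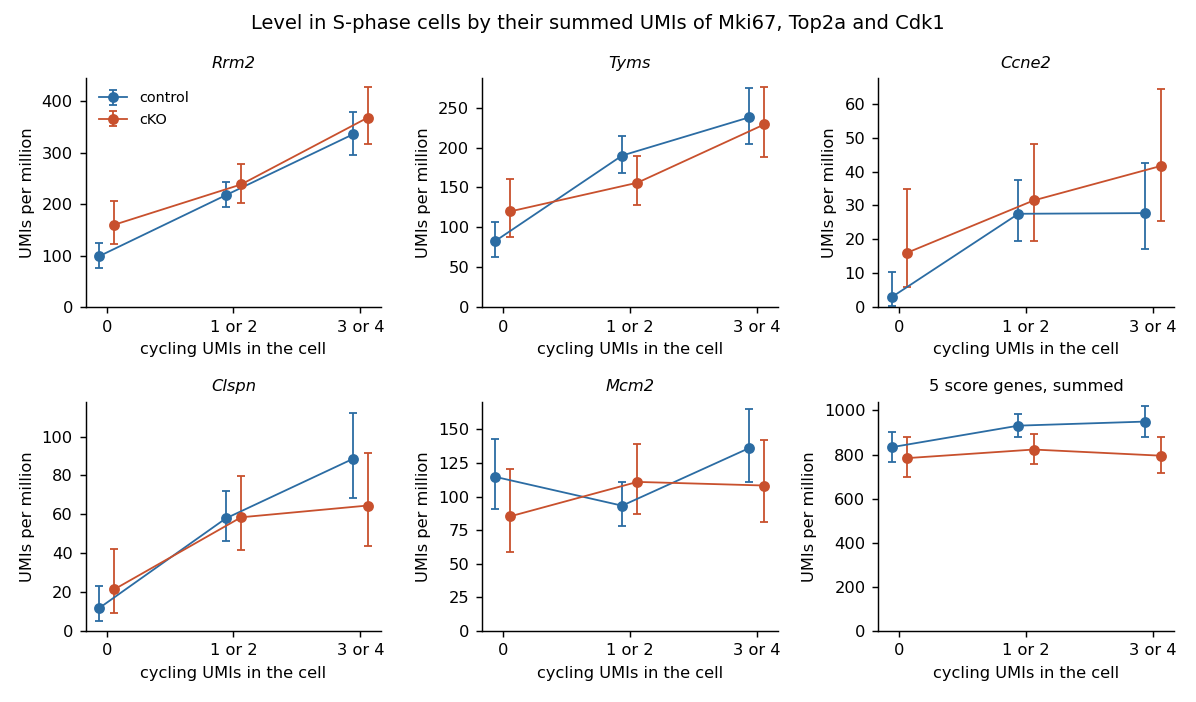
Level (y axis, UMIs scaled to a total of 1000000, with 95% Poisson intervals) of Rrm2, Tyms, Ccne2, Clspn, Mcm2 and the 5 gate genes in S-phase cells with 0, 1 or 2 and 3 or 4 UMIs of Mki67, Top2a and Cdk1, control in blue and cKO in red. Rrm2 goes from 98.7 to 335 CPM in the control and from 159.9 to 368 CPM in the cKO. The gate genes stay between 784 and 949.7 CPM, but every cell was chosen for a high summed level of them.

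The comparison of the genotypes asked how the transcriptome of S-phase keratinocytes differs with the loss of Mettl3. Of 8795 genes with at least 20 UMIs in the S-phase cells of both libraries together, 10.7% were at least 1.5-fold higher and 8.4% at least 1.5-fold lower in the cKO, and the median log2 ratio was 0.02. The replication programme stayed near that median, but the gate took the highest cells of each library by related genes. A similar level in the 2 libraries is therefore partly set by the choice of cells. Of the 70 replication genes outside the gate, 39 were above and 31 below 0 on the log2 scale, the median was 0.03, and 1 gene passed the size rule in each direction. Mcm4 was the lower, at 133 CPM (control) and 88.6 CPM (cKO) with a ratio of 0.666 (0.543 to 0.813), and Dctd, the deoxycytidylate deaminase, the higher, at 33.2 CPM (control) and 53.8 CPM (cKO) with a ratio of 1.62 (1.19 to 2.2). By role the medians were -0.07 for licensing, 0.09 for helicase activation, 0.11 for the polymerases, 0.03 for clamp loading and strand maturation and 0.01 for nucleotide supply.

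The counting interval lay above 1 for 8 and below 1 for 5 of the 70 genes, a share like that over all genes (970 and 619 of 8795), so the values of single genes below are a description. The gate genes Mcm6 and Mcm3 had ratios of 0.762 (0.655 to 0.885) and 0.819 (0.696 to 0.961) and Pcna of 1.07 (0.915 to 1.24), and these genes were read by the gate, whose limit was lower in the cKO library. Outside it, Fen1, the flap nuclease, was at 76.5 CPM (control) and 114 CPM (cKO), a ratio of 1.49 (1.22 to 1.83). Tk1 had a ratio of 1.32 (1.14 to 1.53), Umps, the enzyme that makes UMP, of 1.42 (1.15 to 1.73), and the clamp loader Rfc1 of 1.32 (1.08 to 1.61). On the other side Prim1, the primase, had a ratio of 0.753 (0.596 to 0.946). Pola1, its polymerase partner, had a ratio of 0.69 (0.468 to 0.999), in libraries that also differ in embryo sex. Ung, Gins2, Lig1, Cdc6 and Cdt1, which mark the S-phase cells, had ratios of 1.12, 1.13, 1.02, 0.965 and 0.94, each with an interval that holds 1. No gene of the 21 chromatin assembly genes passed the size rule, and the histone chaperone Nasp was at 380.1 CPM (control) and 302 CPM (cKO), a ratio of 0.795 (0.711 to 0.887).

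The same lists can be read in the other pool cells. There the median log2 ratio of the replication genes was -0.10, in mitotic-phase cells it was -0.21 with 11 of 70 genes at least 1.5-fold lower (5.58% of all genes were), and in resting cells it was 0.19 with 12 of 60 measured genes at least 1.5-fold higher (10.2% of all genes were) and 3 lower. For clamp loading and strand maturation the medians were 0.03 in S-phase and -0.40 in mitotic-phase cells, with 7 genes lower in the latter. 2810417H13Rik showed it, at 314 and 318 CPM in S-phase cells of the control and cKO, and at 685 and 426 CPM in mitotic-phase cells. This difference between phases was not tested, since each value is 1 library and the groups were chosen by different rules.

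**Figure D4:**
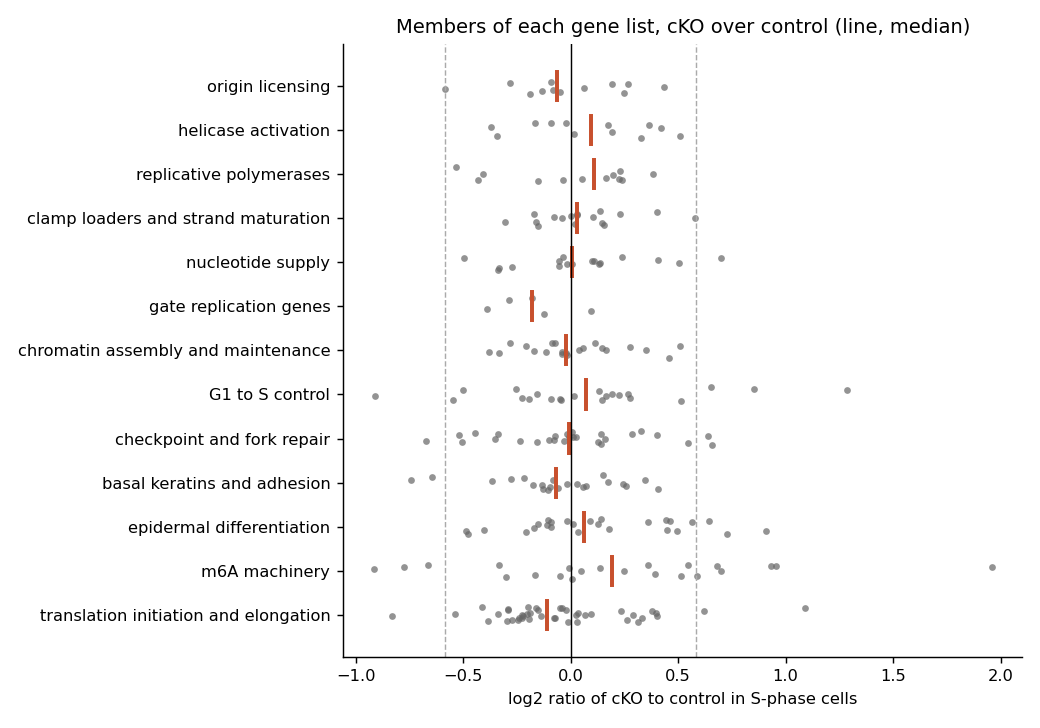
Log2 ratio of cKO to control in S-phase cells (x axis) for each measured member (grey points) of 13 gene lists, with the list's median as a red line and dashed lines at 1.5-fold. The medians lie between -0.18 for the gate genes and 0.19 for the m6A machinery, where Rbm15 is the point farthest to the right.

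Of the genes that control entry into S phase 3 of 22 were at least 1.5-fold higher and 1 lower, against 10.7% and 8.4% of all genes, so the list as a whole was not above the background. Cdkn1c, the CDK inhibitor p57, was the lower, at 191 CPM (control) and 102 CPM (cKO), a ratio of 0.533 (0.443 to 0.638). It was lower in the cKO in the other groups as well, at 282 and 132 CPM in mitotic-phase and 256 and 143 CPM in resting cells. Ccnd1 was at 53.5 CPM (control) and 84.0 CPM (cKO), a ratio of 1.57 (1.23 to 2.002). Fbxo5, the inhibitor of the anaphase-promoting complex, had a ratio of 1.81 (1.2 to 2.72), and E2f3, on 27 and 35 UMIs, of 2.44 (1.43 to 4.19). Ccne1 and E2f1 had ratios of 1.2 and 0.97.

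Within the m6A machinery 6 of 22 genes were at least 1.5-fold higher and 3 lower, against 10.7% and 8.4% of all genes, with a median log2 ratio of 0.19. Rbm15, an RNA-binding adaptor of the writer complex, was at 10.5 CPM (control) and 40.7 CPM (cKO), a ratio of 3.88 (2.47 to 6.22). The m6A readers Ythdf2 and Ythdc1 were at 71.6 and 80.7 CPM in the control and 137 and 129 CPM in the cKO, ratios of 1.91 (1.56 to 2.32) and 1.6 (1.32 to 1.95). The lower genes were Mettl3, the reader Igf2bp2, with a ratio of 0.631 (0.442 to 0.887), and Rbmx. Rbmx, an RNA-binding protein whose binding m6A can alter, had a ratio of 0.584 (0.401 to 0.835), in libraries that also differ in embryo sex.

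Krt15, a basal keratin outside the gate, was at 6239 CPM (control) and 3728 CPM (cKO), a ratio of 0.597 (0.58 to 0.616), while Trp63 had a ratio of 1.05, and 2 of 22 genes of the basal list (Krt15 and the laminin chain Lamb1) were at least 1.5-fold lower with none higher, near the share of all genes. Krt14 and Krt5, read by the gate, had ratios of 0.834 and 0.761, and the keratin minimum was passed by 64.9% of kept control cells and 42.7% of kept cKO cells. Of 26 differentiation genes 3 were higher (Notch2, Sfn and Hes1, at 1.88, 1.65 and 1.56) and none lower, near the 10.7% and 8.4% of all genes, and the median log2 ratio was 0.06.

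The 10 highest and 10 lowest ratios lay outside these lists, apart from the histone gene Hist1h1c. On GRCm38 (GENCODE), Rpp25l spans chr4:41712033-41713534, Nxt1 chr2:148672601-148676027 and Rgs2 chr1:143999338-144004161. With a minimum of 100 UMIs summed over the libraries, Rpp25l was at 45.8 CPM (control) and 181 CPM (cKO), a ratio of 3.95 (3.19 to 4.9), and it was followed by Aunip (3.49), Coa7 (3.33), Fam212a (3.24), Nxt1 (2.84), Defb1 (2.82), Mrpl43 (2.81), Polr2l (2.79), Tradd (2.65) and Snapc5 (2.62). Nxt1, a cofactor of mRNA export, was at 107 CPM (control) and 305 CPM (cKO), and Mrpl43, of the mitochondrial ribosome, at 94.3 CPM (control) and 265 CPM (cKO). Polr2l is a small subunit shared by the RNA polymerases, and Defb1 encodes an antimicrobial defensin. Rgs2, a regulator of G protein signalling, was the lowest, at 122 CPM (control) and 43.3 CPM (cKO), a ratio of 0.355 (0.269 to 0.464). After it came Erdr1 (0.401), Cygb (0.422), Clu (0.424), the linker histone Hist1h1c (0.433), Klc3 (0.434), Atf3 (0.441), 2310009B15Rik (0.467), Odc1 (0.472) and Icam1 (0.491). The annotation places Erdr1 on a sex chromosome, and the embryo sex of the libraries differs. Odc1, the rate-limiting enzyme of polyamine synthesis, was at 153 CPM (control) and 72.2 CPM (cKO). Atf3, a stress-induced transcription factor, depended on the keratin minimum, since its log2 ratio of -1.18 became -0.22 at 60 molecules per 10000.

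**Figure D5:**
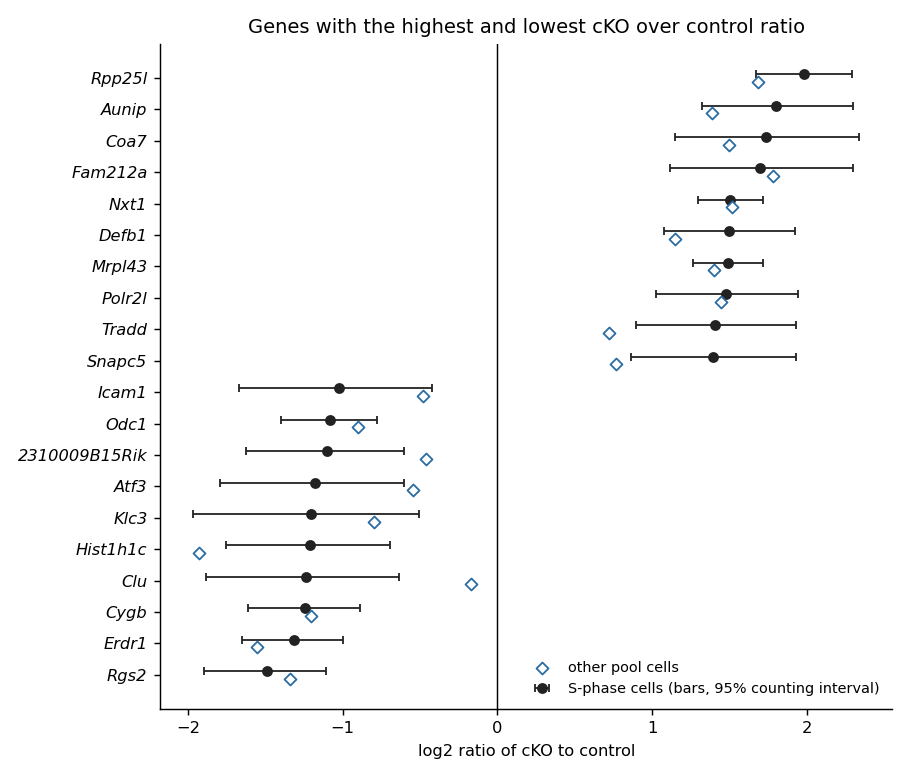
Log2 ratio of cKO to control (x axis) for the 10 highest and 10 lowest genes with at least 100 UMIs in S-phase cells. Black points with 95% counting intervals are the S-phase cells, and open blue diamonds are the other pool cells. Rpp25l stands at 1.98 and 1.69 and Rgs2 at -1.49 and -1.34, and Clu has the widest gap of the 20, at -1.24 and -0.17.

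All 20 of these genes had a ratio on the same side of 1 in the other pool cells. The log2 ratio of cKO to control was 1.98 in S-phase and 1.69 in other pool cells for Rpp25l, 1.51 and 1.51 for Nxt1, and -1.49 and -1.34 for Rgs2. The difference of the 2 log2 ratios had a counting interval that left out 0 for Clu, at -1.24 and -0.17. The interval also left out 0 for Hist1h1c, Atf3, 2310009B15Rik, Tradd and Snapc5, while for the others it held 0. The 20 genes were picked for extreme ratios in S-phase cells, which favours values further from 0 there than in other pool cells. These gaps are therefore a description, and the Atf3 ratio also depended on the keratin minimum. Of 2538 genes with at least 200 UMIs in S-phase cells, 99.5% had a difference of the 2 log2 ratios within 1.5-fold, the median difference was 0.02, and 9.50% had a counting interval that left out 0. Among those 2538 genes, the 5 with the most negative difference were Sf3b3 (-0.89 and 0.07), a splicing factor, 2310009B15Rik, Pigf, Pik3r1 (-0.68 and -0.14) and 2310011J03Rik. The 5 with the most positive were Hist1h1c (-1.21 and -1.93), Pbk (0.67 and -0.03), Tmx1, Rfc1 (0.40 and -0.27) and Lrrc42. These differences rest on 1 library per condition and were not tested.

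The share of pool cells past a common limit was also compared, since the gate itself fixes the share. At the control limit of 6.11 molecules of the 5 genes per 10000, 25.03% of control pool cells and 19.1% of cKO pool cells (16.8 to 21.5) passed. With every cell thinned to 5500 UMIs and a limit of 3 UMIs, the shares were 36.1% (34.1 to 38.2) and 32.2% (29.4 to 35.0), so the gap was smaller. At the same control limit the cells outside the pool with Krt1 and Krt10 at or above 30 per 10000 passed in 6.82% (control) and 5.52% (cKO), with overlapping intervals of 4.65 to 9.59 and 3.30 to 8.59. At each library's own limit the cKO share was 7.36%, so the order of the libraries turned with the limit. Cells with a follicle gene UMI passed the control limit in 31.2% and 23.0%, and the cKO limit gave 27.5% for the cKO.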

How the data were processed

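Sorted YFP+ epithelial cells were sequenced with 10x 3′ V2 chemistry, in 1 control and 1 Mettl3 cKO library. The authors deposited UMI counts per gene and barcode, unfiltered, which the submitters' processing notes credit to Cell Ranger 2.0, aligned to a mouse genome build given as mm10. The annotation release is not given in the sources used here. Counts of S-phase and comparison cells were summed per library and written as counts per 1000000 UMIs (CPM), with exact Poisson intervals for levels, exact conditional binomial intervals for ratios and exact (Clopper-Pearson) binomial intervals for shares, all at 95% and covering counting error only. PCR duplicates are collapsed by UMI. Genes needed 20 UMIs over the libraries compared, and 1.5-fold was the size rule. Genes were named as the gate genes, list members, the 10 highest and 10 lowest by ratio with at least 100 UMIs, and the 5 each way, with at least 200 UMIs, whose ratio differed most from that in other pool cells; 1 of these genes is not reported here. The members, lists and rules were chosen with earlier results of these data known. Alternatives (cell filters, gate limits, scaling, free RNA, count filters, doublets) are given in the closing section; those on the keratin minimum and the late cell cycle UMI were added after seeing the data. Promoter sequences came from RefSeq (GRCm38.p6). The scripts were tested on simulated data. Python 3.11.15, numpy 2.4.6, scipy 1.17.1, pandas 2.3.3, scanpy 1.11.5 (Scrublet) and edgeR 4.0.16 (TMM factors alone) in R 4.3.3 were used.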

Additional observations from a re-analysis of the deposited data

Results flagged for a closer look

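Among 4302 genes with at least 100 UMIs in S-phase and in mitotic-phase cells, 2 had a log2 ratio of cKO to control above 0 in S-phase cells and below 0 in mitotic-phase cells with counting intervals on opposite sides and a size of at least 1.5-fold in at least 1 of them. Pbk, a mitotic kinase, was at 0.67 (0.26 to 1.07) on 116 and 98 UMIs in S-phase cells, and at -0.21 (-0.34 to -0.09) on 1610 and 765 UMIs in mitotic-phase cells. Pttg1 (securin) was at 0.56 (0.02 to 1.09) on 69 and 54 UMIs, and at -0.78 (-0.92 to -0.65) on 1813 and 581 UMIs. The difference between the phases was not tested, since each ratio compares 1 library with 1 library.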

How the results depend on the processing

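No paired analysis was possible because each condition has 1 library, and no replicate could be left out. Over 18 alternatives no value past 1.5-fold changed sign, 401 values of the main comparisons stayed within their counting interval (counts within 1.5-fold) and 11 did not. The number of S-phase cells follows the gate by construction, at 274 in the cKO library with at least 1000 genes per cell, 80 (cKO) and 136 (control) with at least 2500, and 72 and 136 with the top 10% of the pool. The genes at least 1.5-fold higher and lower in the cKO were 270 and 135 of 4302 with at least 100 UMIs, and 1987 and 1431 of 11589 with no filter beyond 1 UMI in each library, against 943 and 739 of 8795. The cKO share past the control limit was 16.8% with at least 2500 genes and 32.2% after thinning to 5500 UMIs, when the control was at 36.1%. Of 944 values for 56 named genes, 920 stayed within their interval and 24 did not, among them Atf3 as given above. Depth limits scarce genes such as Mettl3 and E2f3, whose intervals are wide, cells of 1 library are not replicates, and the gate was set on the same RNA that is described. Genotype, embryo sex and library cannot be told apart.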

Other observations

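Further lists were read in the S-phase cells, where 10.7% of all genes were at least 1.5-fold higher and 8.4% lower in the cKO. Translation initiation and elongation factors had a median log2 ratio of cKO to control of -0.11 over 42 genes, with 2 at least 1.5-fold higher and 1 lower. Eif1a was at 71.6 CPM in the control and 152 CPM in the cKO, and the X-linked Eif2s3x at 84.2 and 47.3 CPM, in libraries of different embryo sex. Of 17 p53 target genes none was higher and 4 were lower, namely Sesn2 (22 and 3 UMIs), Pmaip1 (22 and 4), Sesn1 (44 and 10) and Trp53inp1 (22 and 5), with a median of -0.07. WNT and placode genes had 3 higher and 5 lower of 25, the first near the share of all genes, with a median of -0.12. In the MYC family, too small to set against those shares, 2 of 9 were higher and 1 lower, with Myc at 23.1 and 36.8 CPM and Bmyc at 56.2 and 88.6 CPM. Cohesin and condensin genes had a median of 0.04, and the G2 and mitosis list of 0.10, with 6 higher and 5 lower of 57, near the shares of all genes. Of 27 checkpoint and fork repair genes 2 were higher and 1 lower, with a median of -0.01, and of 10 histone genes 1 was higher and 2 lower, with a median of -0.17.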
